A study of Mus musculus with 8 samples.

Results

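Visceral endoderm is the epithelium that lines the yolk sac. Before the liver is formed it makes the blood proteins of the embryo, such as alpha-fetoprotein, apolipoproteins and carrier proteins, and it takes up maternal protein through the receptors cubilin, amnionless and megalin. The liver bud and gut endoderm, which begin to form around this stage, share many of these genes. In RNA of whole embryos they therefore read both the embryo's own endoderm and any yolk sac left on at dissection, and these sources cannot be told apart here.

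The list holds 32 genes of yolk sac endoderm and plasma proteins. They were listed by name, but with earlier results of these data known. Of these, 30 had a probe on the array under the listed name or its current name (Alb for Alb1, for example), with 42 probes in all. Serpina1a and Spink3 were not analysed here. A probe was tested if at least 4 of the 8 arrays read it well above background, and the brightest one stood for each gene. This left 29 members among 17099 genes. The fibrinogen chain gene Fga was not well above background on any array and was not tested. Of the 29, 23 were well above background on all 8 arrays.

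The samples were 8 pools of total RNA from mouse embryos at embryonic day 9.0, each of 3 to 4 embryos, hybridised to 1-colour Agilent arrays. Wild-type embryos gave 4 pools, and embryos labelled Arid3b-null, for the gene of the DNA-binding protein ARID3B, gave the other 4. The sources used here give neither the null allele nor the strain nor the litters, so a p-value reflects only how much these pools vary. Values are log2 signals relative to the array's 75th percentile (a value below 0 is dimmer than that), and a difference is the null mean less the wild-type mean, with its standard error from limma. Levels of different genes cannot be compared, since each probe has its own brightness.

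Per array, 59.9% to 64.1% of probes rose clearly over background, none was saturated, and the number of arrays limits the precision. Arid3b was lower in all 4 null pools, at 39.2% of the wild-type mean (limma adjusted p = 0.00577), with null pool 4 the highest of them. The sources used here do not say whether the null allele changes the part that its probe reads. Pools 1 and 2 of both groups were on slide 1 and pools 3 and 4 on slide 2. Wild-type pools took positions 1 and 2 of each slide and null pools positions 3 and 4, so position and genotype cannot be told apart.

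Probes of 5 members are shown first because the results turn on them. They are 60 bases long, are given 5′ to 3′ as deposited with mm7 coordinates, and carry no capitals. Apoe lies at chr7:17378757-17378816, Alb at chr5:90443687-90443746, Amn at chr12:108792302-108792450 and Apoa4 at chr9:46199701-46200444. The Amn and Apoa4 coordinates span more genome than the probe's own length. The neighbouring probes of Apob lie at chr12:7972247-7972306 and chr12:7972307-7972366.
Apoe: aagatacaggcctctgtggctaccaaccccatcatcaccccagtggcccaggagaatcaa
Alb: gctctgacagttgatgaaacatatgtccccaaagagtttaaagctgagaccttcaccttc
Amn: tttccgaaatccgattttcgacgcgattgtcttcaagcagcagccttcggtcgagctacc
Apoa4: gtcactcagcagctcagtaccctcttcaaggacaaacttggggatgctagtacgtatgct
Apob, upstream probe: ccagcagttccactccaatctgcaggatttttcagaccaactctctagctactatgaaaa
Apob, downstream probe: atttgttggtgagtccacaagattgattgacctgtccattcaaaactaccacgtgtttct

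Between the genotypes, 1 of the 29 members passed the test, and it was Apoe. The share over all genes tested was 4.20%, so the list was not called more often than the array as a whole. Apoe rose in the null embryos, where 2.85% of all genes did, and no member fell, where 1.35% did. By an unadjusted p under 0.05, 6 members passed, which is 20.7%, the same share as over all genes. The median difference of the members was 0.16, against -0.01 over all genes, and 20 of the 29 had a higher mean in the null pools (69.0%, against 48.7% of all genes). That median was 0.07 in the deposited table and -0.04 with normexp (-0.02 and -0.07 over all genes), and it rested on single pools. Without null pool 3 it was -0.17, without null pool 4 it was 0.31, and without wild-type pool 1 or null pool 1 it was 0.02 and 0.01. A genotype by slide term in limma was called for 0 of 29 members, with 0 at an unadjusted p under 0.05, and for 0.00585% of all genes. This does not show that the slides were alike, since the differences of Fgb were 0.50 and -0.18 on slides 1 and 2 and those of Hnf4a -0.25 and 0.57.

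**Figure D1:**
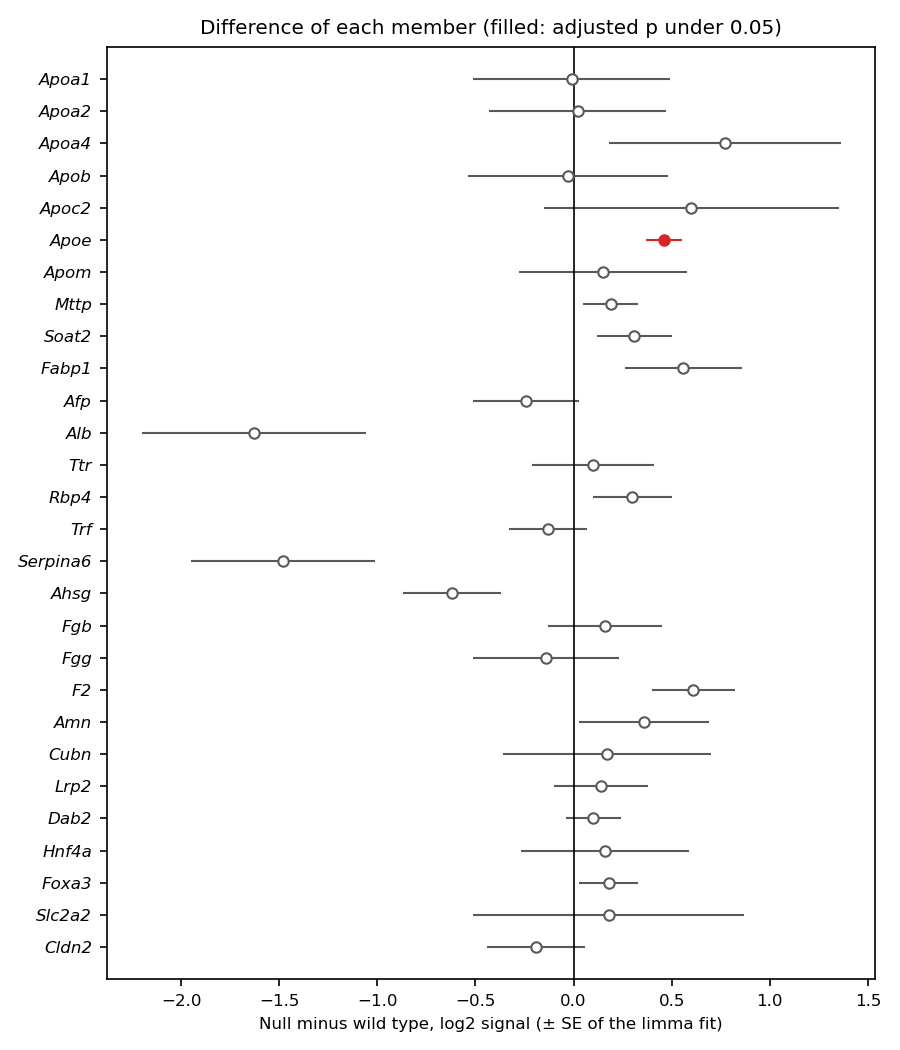
Difference of 28 of the 29 tested members on the log2 scale (null less wild type), with bars for the standard error and members in order of role. Apoe (0.46) is the only filled point, with a limma adjusted p under 0.05, and the bars of Alb and Serpina6 rest on null pools of which 3 of 4 were not well above background.

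The members spread more widely between pools than genes at large. The median member ranged 2.72-fold from its lowest to its highest pool, against 1.51-fold over all genes. A range over 2-fold was seen for 20 of 29 members (69.0%, against 21.5% of all genes), and one over 4-fold for 9 (31.0%, against 4.64%). Of those 9, Apoa4, Alb, Serpina6, Hnf4a and Slc2a2 had pools not well above background, while Apoa1, Apob, Apoc2 and Cubn had none. On all arrays, 23 of 29 members were well above background, against 15587 of 17099 genes. The part of dim signal in the members' wider spread was not tested. Within the null group the median SD was 0.64 on the log2 scale, and within wild type it was 0.32. Over all genes these were 0.19 and 0.15. The SD was larger in the null pools for 26 of 29 members, and for 69.9% of all genes. Other lists spread widely too. The 10 primitive erythroid markers had a median range of 2.01-fold, with 5 over 2-fold and a larger SD in null for all 10, and the 4 tested trophoblast markers 2.44-fold, with 3 over 2-fold.

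The members' order of the pools was alike for many of them. Null pool 3 was the highest of the 8 pools for 15 of 29 members (51.7%, against 13.0% of all genes). Null pool 4 was the lowest for 10 (34.5%, against 6.21% of all genes) and wild-type pool 1 for 9 (31.0%, against 11.5%). Null pool 2 was the lowest for 6 (20.7%), close to its 22.6% over all genes. Set against the wild-type pool of the same number, null pool 1 was higher for 28 members and null pool 3 for 25. Null pool 2 was higher for 7 and null pool 4 for 7. Over all genes these shares were 47.0%, 51.5%, 48.1% and 48.6%. The median difference within the same-numbered pairs was 0.71 and 0.51 for numbers 1 and 3, and -0.62 and -0.39 for numbers 2 and 4. Sign thus changed between pairs, within each slide as well as over both.

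Among wild-type pools, pool 2 was the highest for 21 of 29 members and pool 1 the lowest for 22, while over all genes these shares were 33.6% and 28.1%. The null pools at position 4 of their slides (pools 1 and 3) both lay above those at position 3 (pools 2 and 4) for 24 members (82.8%, against 18.2% of all genes). Apoe, Ahsg, F2 and Foxa3 were among the exceptions. With 1 pool per position on each slide, position and pool cannot be told apart. Both wild-type pools at position 1 lay above both at position 2 for 10 members (34.5%, against 10.2% of all genes). In such bulk samples, fewer cells of a type and less RNA per cell cannot be told apart either.

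**Figure D2:**
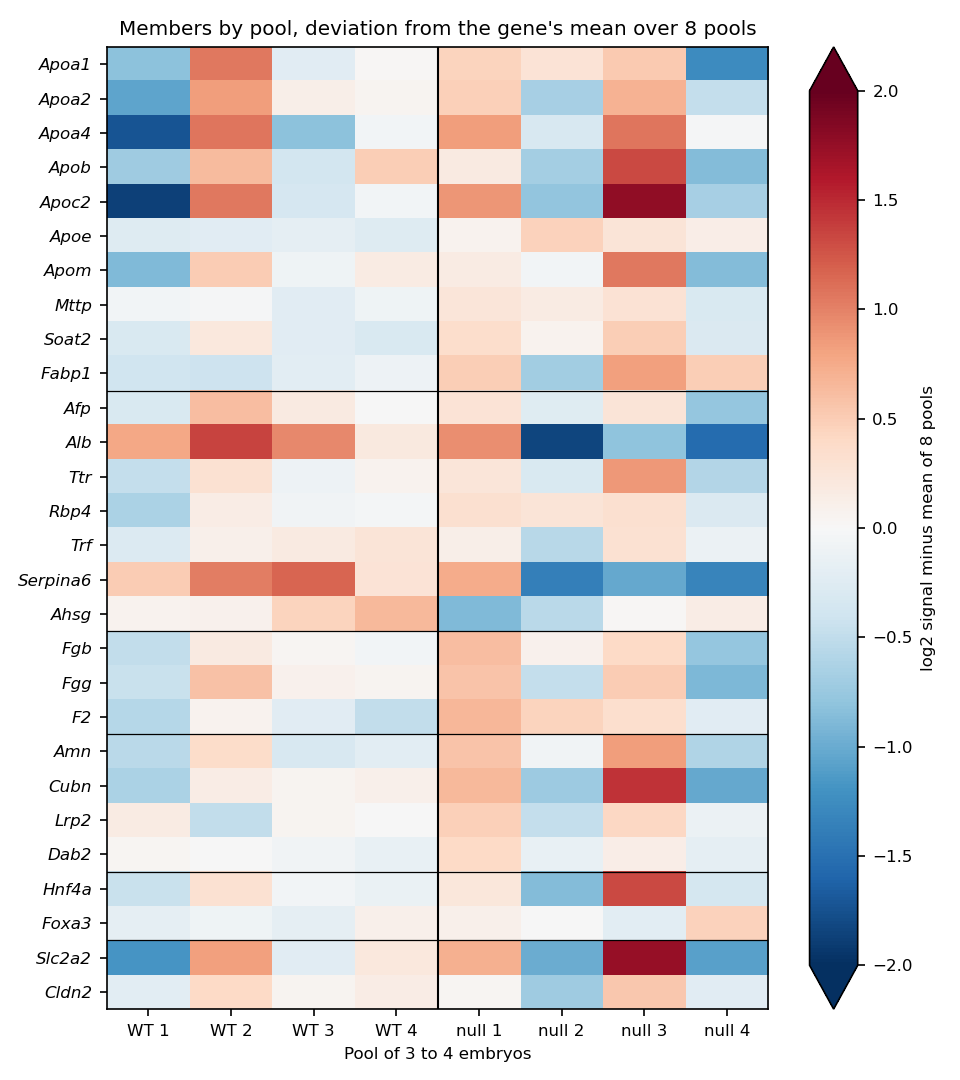
Log2 signal of 28 of the 29 tested members in each pool, minus the member's mean over the 8 pools. Rows are grouped by role (lipid transport, plasma carriers, clotting, endocytic receptors, transcription factors, transporter and junction), and colours beyond 2 on either side are capped. Null pool 3 is red and wild-type pool 1 and null pool 4 are blue for most rows, while Apoe, Alb, Serpina6 and Ahsg have other patterns.

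Apolipoproteins and other genes of lipid transport made up 10 of the members. Apoe encodes the apolipoprotein E of lipoprotein uptake and is also made outside endoderm. It read 3.25, 3.29, 3.33 and 3.26 in wild-type pools 1 to 4 and 3.58, 3.97, 3.77 and 3.65 in null pools 1 to 4. All null pools were above all wild-type pools, and its highest pool was null pool 2, where most members were low. Its signal rose 1.38-fold, by 0.46 ± 0.09 (SE, log2; limma adjusted p = 0.0381), from 3.28 ± 0.03 to 3.74 ± 0.17 (SD, n = 4 in each group). Groups that do not overlap were seen for 2 of 29 members, Apoe among them, both higher in null, and for 16.1% of all genes (8.08% higher, 8.06% lower). Apoe kept an adjusted p under 0.05 without null pool 1 or 2 and with the slide or the replicate number as a block. The call ended with scaling on the median (0.37, adjusted p = 0.199), no shift between arrays (0.39, 0.166), no filter on dim probes (0.46, 0.0989) and normexp (0.53, 0.996). It lost the call without any 1 of wild-type pools 1 to 4 or null pools 3 and 4 (adjusted p = 0.0511 to 0.115, differences of 0.45 to 0.49).

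The widest range of all members was that of Apoc2, the apolipoprotein that activates lipoprotein lipase. It read -2.11, 0.82, -0.57 and -0.29 in the wild-type pools and 0.64, -1.02, 1.54 and -0.90 in the null pools. Its lowest and highest pools lay 12.5-fold apart, wild type alone spanned 7.62-fold, and the groups overlapped over most of that range. The difference between genotypes was 0.60 ± 0.75 (SE, log2; limma adjusted p = 0.724).

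Apoa1, the main protein of high-density lipoprotein, read -2.86, -0.98, -2.26 and -2.02 in the wild-type pools and -1.59, -1.77, -1.51 and -3.30 in the null pools. Its group means differed by -0.01 ± 0.50, with both the highest and a low pool in wild type. This probe was printed in 10 spots per array, whose SD within an array was 0.035 to 0.144 on the log2 scale. The SD between wild-type pools was 0.78. Spots of 1 array do not measure the noise of labelling and hybridisation, so these values leave the array's own share unknown.

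Apoa4, an apolipoprotein of intestine and yolk sac, read -6.76, -3.96, -5.85 and -5.09 in wild type and -4.20, -5.35, -3.96 and -5.06 in the null pools. Wild-type pools 1 and 3 did not read well above background, and its difference was 0.77 ± 0.59 (adjusted p = 0.523). Apoa2, the second protein of high-density lipoprotein, spanned 3.70-fold, with wild-type pool 1 the lowest and wild-type pool 2 the highest (difference 0.02 ± 0.45).

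Apob, the structural protein of low-density lipoprotein, read -3.31, -1.96, -2.96 and -2.10 in wild type and -2.42, -3.27, -1.28 and -3.46 in the null pools. Null pool 3 was the highest, and the difference was -0.03 ± 0.51. Of its 5 probes, the neighbouring pair shown above was well above background on all arrays, and the upstream one gave 0.05 ± 0.54. The other probes were well above background on at most 3 of the 8 arrays. Apom, which carries sphingosine 1-phosphate, spanned 3.83-fold between null pool 3 and wild-type pool 1.

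Next come an enzyme and intracellular carriers of lipid. Mttp, the microsomal protein that loads lipid onto apolipoprotein B, spanned 1.52-fold (difference 0.19 ± 0.14) and Soat2, which esterifies cholesterol, 1.73-fold (0.31 ± 0.19). Fabp1, the liver fatty acid binding protein, read -3.21, -3.22, -3.02 and -2.91 in wild type and -2.32, -3.50, -1.99 and -2.32 in the null pools. Null pool 2 was its lowest and the other null pools were above all of wild type. It spanned 2.85-fold, its difference was 0.56 ± 0.30 (limma adjusted p = 0.347), and without null pool 2 it was 0.88 with an adjusted p of 0.0227.

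Plasma carrier proteins showed a pattern of their own in part. Afp, alpha-fetoprotein, the main blood protein of the embryo, read 2.62, 3.53, 3.09 and 2.91 in wild type and 3.19, 2.67, 3.18 and 2.15 in the null pools. Wild-type pool 2 was the highest and null pool 4 the lowest. The means were 3.04 ± 0.38 and 2.80 ± 0.49 (SD, n = 4 in each group), a difference of -0.24 ± 0.27 (SE; limma adjusted p = 0.697). Its 10 spots per array had an SD of 0.047 to 0.074 within an array.

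Albumin, the main plasma protein of the later liver, was dim. Alb read -5.23, -4.66, -5.05 and -5.81 in wild type and -5.08, -7.84, -6.81 and -7.55 in the null pools. Wild-type pools 1 to 3 and null pool 1 were well above background, and the other 4 pools were not, so the size of the difference is not well set. The fit gave -1.63 ± 0.57 (limma adjusted p = 0.156). Serpina6, the corticosteroid-binding globulin, read -5.73, -5.22, -5.07 and -5.97 in wild type and -5.49, -7.61, -7.26 and -7.55 in the null pools, with the same 4 pools well above background (-1.48 ± 0.47; adjusted p = 0.123). Both genes entered the test largely through the wild-type pools. The differences were much smaller in other settings, at -0.52 and -0.43 in the deposited table and -0.57 and -0.53 with normexp (Alb, then Serpina6). The normexp values have a limit of their own, since the floor was uneven between pools. The 10th percentile was 9.88 in wild-type pool 4 and 9.12 in null pool 4, against 6.11 to 7.28 elsewhere. Limma called both without null pool 1, but no null pool was then well above background, so nothing is read from that. Null pool 3, the highest pool of most members, was low for both.

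Ahsg, fetuin, a secreted inhibitor of mineral formation, read -4.96, -4.94, -4.58 and -4.38 in wild type and -5.90, -5.56, -5.00 and -4.87 in the null pools. Null pool 4 lay within the wild-type range, and null pool 1 was not well above background. The difference was -0.62 ± 0.25 (limma adjusted p = 0.205). In each same-numbered pair the null pool was lower, with differences of -0.95 to -0.43. With the replicate number as a block, which 13.7% of all genes passed, the adjusted p was 0.0280, and with the slide as a block, which 8.01% passed, it was 0.0244.

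Ttr, transthyretin, the carrier of thyroid hormone, spanned 2.72-fold with null pool 3 the highest and null pool 4 the lowest (0.10 ± 0.31). Rbp4, its partner that carries retinol, read 2.35, 3.12, 2.90 and 2.93 in wild type and 3.29, 3.23, 3.30 and 2.69 in the null pools. Its difference was 0.30 ± 0.20 (adjusted p = 0.457), with null pool 4 apart from the other null pools. Trf, the iron carrier transferrin, spanned 1.82-fold (-0.13 ± 0.20).

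**Figure D3:**
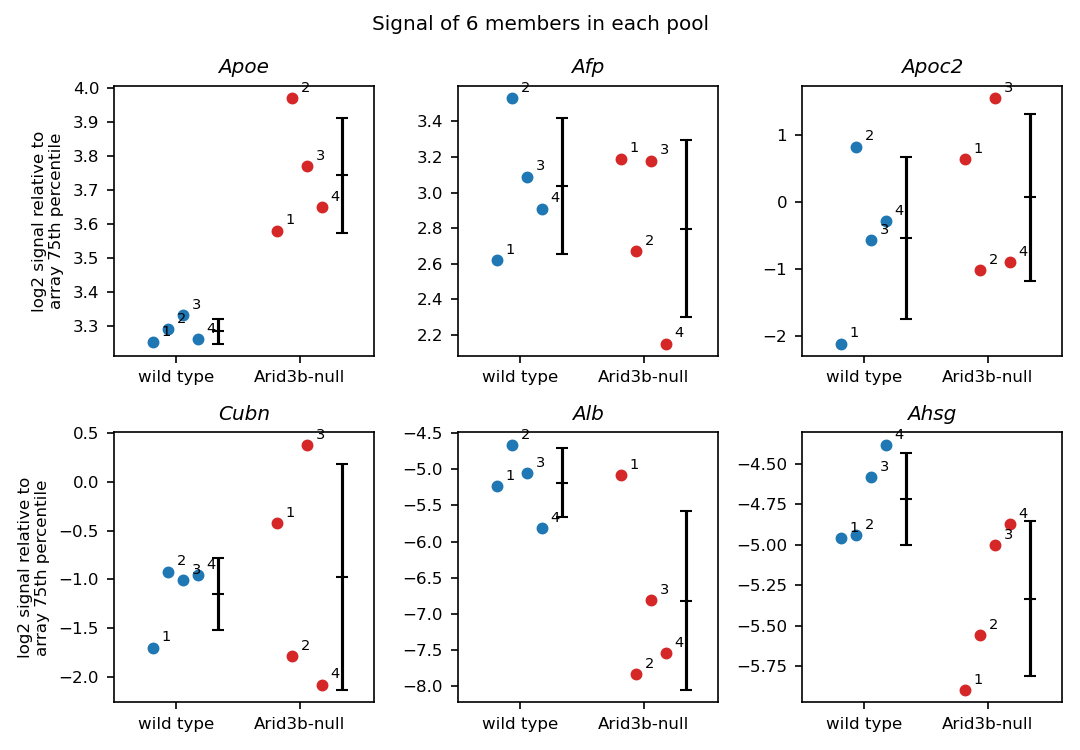
Log2 signal of 6 members in each pool, with the pool number beside each point and the mean ± SD of the 4 pools as a bar. Apoe separates the groups, Afp, Apoc2 and Cubn overlap across them, for Alb null pool 1 stands with wild type, and for Ahsg only null pool 4 lies within the wild-type range.

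Of the clotting proteins, 3 of 4 members were tested. F2, prothrombin, read -4.09, -3.46, -3.75 and -4.02 in wild type and -2.86, -3.07, -3.18 and -3.75 in the null pools. The null pools were the higher except for pool 4, and the difference of 0.61 ± 0.21 did not pass (limma adjusted p = 0.150). The fibrinogen chain genes Fgb and Fgg had differences of 0.16 ± 0.29 and -0.14 ± 0.37. Both were lowest in null pool 4 and spanned 2.60-fold and 2.78-fold.

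The endocytic receptor genes followed the shared order of pools to different degrees. Cubn encodes cubilin, which binds many plasma proteins at the apical surface. It read -1.70, -0.92, -1.01 and -0.96 in wild type and -0.42, -1.79, 0.38 and -2.08 in the null pools. The null pools spanned 5.53-fold and enclosed all wild-type values, and the difference was 0.17 ± 0.53 (adjusted p = 0.913). Amn encodes amnionless, which anchors cubilin in the membrane. It read -1.85, -0.94, -1.63 and -1.52 in wild type and -0.74, -1.38, -0.47 and -1.91 in the null pools, so that null pools 1 and 3 were again the highest (0.36 ± 0.33; adjusted p = 0.607).

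Lrp2, megalin, which is also a receptor of the neural tube, spanned 1.95-fold, and its lowest pool was wild-type pool 2, where many other members were high. Its difference was 0.14 ± 0.24, and its other kept probes gave 0.32 ± 0.24 and 0.23 ± 0.30. Dab2, the adaptor that links these receptors to clathrin, differed by 0.10 ± 0.14. A second kept probe of Dab2 gave 0.35 ± 0.13, with an adjusted p over all probes of 0.171.

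Among the transcription factors, Hnf4a, a nuclear receptor that drives apolipoprotein and clotting genes in visceral endoderm and liver, followed the shared order. It read -5.70, -4.95, -5.30 and -5.38 in wild type and -5.03, -6.12, -3.93 and -5.61 in the null pools. Null pools 2 and 4 were not well above background, and the difference was 0.16 ± 0.43 (limma adjusted p = 0.894). The other probes of Hnf4a were too dim to be kept and gave 0.66 and 0.37. For the first of them null pool 1 was the lowest null pool. Foxa3, a forkhead factor of gut and liver, gave 0.18 ± 0.15.

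Slc2a2, the glucose transporter of liver and yolk sac, read -5.83, -3.83, -4.89 and -4.45 in wild type and -3.94, -5.65, -2.92 and -5.75 in the null pools. This span of 7.51-fold followed the shared order, and null pools 2 and 4 were not well above background (0.18 ± 0.69, limma adjusted p = 0.932). A second kept probe of Slc2a2 followed it only in part. It read -5.42, -5.19, -4.31 and -5.61 in null pools 1 to 4, with null pool 2 above null pool 1 (0.41 ± 0.33). Cldn2, a tight junction protein that forms pores for cations, spanned 2.36-fold with null pool 3 the highest and null pool 2 the lowest (-0.19 ± 0.25).

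Other lists of endoderm and of tissues that may be left on at dissection were read beside the members. Of 23 tested further genes of visceral endoderm and plasma proteins, 1 rose and none fell. Sox17, a factor of definitive and visceral endoderm and of vessels, rose 1.25-fold (0.32 ± 0.07; limma adjusted p = 0.0431), and lost the call without each single pool in turn (adjusted p = 0.0642 to 0.134). The median difference of this list was 0.11 and its median range 1.53-fold, close to the 1.51-fold over all genes. Of the list's remaining genes, Apoc3, Apoh, F5, Kng1 and Gc were not tested.

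Among 10 hepatoblast and liver bud markers 2 rose. Krt19, a keratin also made by surface epithelium, rose 2.22-fold (adjusted p = 0.00805), and Hhex, a homeobox factor of liver bud and endothelium, 1.33-fold (adjusted p = 0.0495). Hhex lost the call without each pool in turn (adjusted p = 0.0603 to 0.148). None fell, and the list's median difference was 0.12. Of 11 gut endoderm markers Sox17 rose and Trh, which encodes thyrotropin-releasing hormone, fell by 0.58 ± 0.12 (adjusted p = 0.0380), with a median of -0.14. Trh lost its call without each pool in turn (adjusted p = 0.0575 to 0.113).

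The yolk sac also holds primitive red cells, and their genes were read beside the members. In RNA of whole embryos these genes cannot tell yolk sac from the embryo's own blood. All 10 primitive erythroid markers had a lower mean in the null pools, and 1 fell, with a list median of -0.50. Klf1, the erythroid Krüppel-like factor, fell by 0.88 ± 0.18 (limma adjusted p = 0.0377). It lost its call without any 1 of the wild-type pools or null pools 1 to 3 (adjusted p = 0.0620 to 0.110). The median deviation of the erythroid list from each gene's mean was 0.28, 0.45, 0.10 and 0.14 in wild-type pools 1 to 4 and -0.34, -0.22, -0.44 and 0.12 in null pools 1 to 4. For the members of this report the same figures were -0.44, 0.30, -0.08 and -0.01, then 0.40, -0.32, 0.49 and -0.35. Null pool 3 thus held the highest member signal and the lowest erythroid signal. The part of blood content in the members' values was not tested.

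None of 8 parietal endoderm markers passed the test, with a median difference of 0.23 and medians of 0.12 to 0.30 in the 4 same-numbered pairs. With the replicate number as a block, 13.7% of all genes were called. The laminin chain gene Lamb1 was among them, with a rise of 0.41 (limma adjusted p = 0.0209, against 0.117 without the block). Of 6 trophoblast markers with a probe 4 were tested and none was called. All 3 markers of decidua, the maternal tissue, had a probe and were not well above background on enough arrays to be tested.

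**Figure D4:**
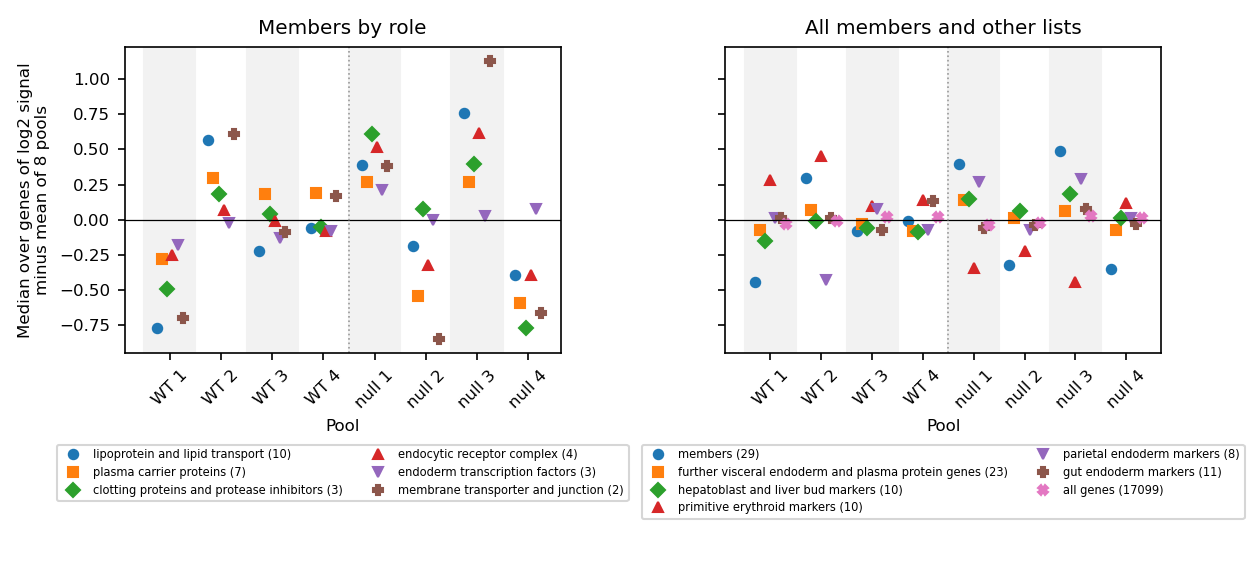
Median over the genes of each list of the log2 signal minus the gene's mean over 8 pools, for members by role (left) and for all members beside other lists (right), with the number of genes in brackets. Transporter, lipid transport and receptor genes are highest in null pool 3, the transcription factors lie near 0, and the primitive erythroid list is lowest in that pool.

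Promoter letters were searched because many members shared an order of the pools. RefSeq promoters (GRCm38.p6, 250 bases before to 50 after the start) were matched for 25 members. The GATA letters NGATAA, bound by factors such as GATA4 and GATA6 of visceral endoderm, stood in 12 of these genes (48.0%), against 28.3% of all genes with a promoter in that table. The 12 members are Ahsg, Apoa1, Apoa2, Apob, Apoc2, Dab2, Fabp1, Fga, Fgb, Fgg, Hnf4a and Slc2a2. The HNF4 letters CAAAGTNCA stood in 2, Apoa4 and Lrp2, against 1.64% of the genes searched, and the forkhead letters TNTTTAC in 5 (20.0%, against 14.0%). Both strands were searched, a gene counted if any of its listed promoters held the letters, and none of these patterns contains another. These matches describe the sequences. Genes with NGATAA include Apoc2 and Slc2a2, which followed the shared order by the probe that stood for each, and Ahsg, which did not. The 250 bases before the start are printed for these 3 genes, with NGATAA or its reverse complement in capitals, since they differ in their pattern over the pools. The capitals at the end of the Ahsg sequence begin a match that runs past the start. The windows lie at chr7:19677942-19678191 (Apoc2, minus strand), chr3:28697653-28697902 (Slc2a2, plus strand) and chr16:22891765-22892014 (Ahsg, plus strand).
Apoc2: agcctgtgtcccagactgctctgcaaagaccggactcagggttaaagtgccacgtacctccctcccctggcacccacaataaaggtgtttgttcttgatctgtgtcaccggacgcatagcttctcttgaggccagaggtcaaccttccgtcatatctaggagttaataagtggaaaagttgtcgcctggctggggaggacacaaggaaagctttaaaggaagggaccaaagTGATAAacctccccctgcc
Slc2a2: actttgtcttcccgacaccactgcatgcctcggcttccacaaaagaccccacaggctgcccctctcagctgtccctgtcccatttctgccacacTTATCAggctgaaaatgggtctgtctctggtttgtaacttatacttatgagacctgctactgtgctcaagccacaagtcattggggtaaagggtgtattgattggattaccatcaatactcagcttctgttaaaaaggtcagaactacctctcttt
Ahsg: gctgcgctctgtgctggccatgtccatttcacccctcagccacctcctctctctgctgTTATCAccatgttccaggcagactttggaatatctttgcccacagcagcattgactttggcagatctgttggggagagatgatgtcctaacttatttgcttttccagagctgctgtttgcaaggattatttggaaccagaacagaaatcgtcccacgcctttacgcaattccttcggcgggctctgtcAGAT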

How the data were processed

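The members and gene lists were chosen with earlier results of these data known. Per the file headers, each array was a 1-colour Agilent whole mouse design annotated on mm7 and read by Feature Extraction 9.5.3.1. The deposited processed intensity of a spot is its Cy3 brightness after background subtraction and detrending within the array, with surrogates for dim spots and no scaling between arrays. The deposited mean and background intensities served for a normexp alternative (offset 50). The deposited value table, taken as log2 from its values (medians 9.44 to 9.47), correlated with log2 processed signals at 0.988 or more. Differences between pool 1 of each group correlated at 0.954 with quantile-normalized ones, so its direction is known, while its background correction and scale are not.

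Control spots and outlier spots (87 to 175 per array) were left out, spots were averaged per probe, and the array's 75th percentile was subtracted. Names were updated through RefSeq (GRCm38.p6). Of 41174 probes, accessions named 22951, symbols 6659 and older names 3109, and the rest kept the file's name. The brightest probe kept stood for a gene. Groups were compared with limma 3.58.1 (R 4.3.3; lmFit, eBayes, genotype only, Benjamini-Hochberg over 17099 genes, threshold 0.05). In simulated data of 17002 genes, 42.0%, 70.0% and 94.0% of genes changed 1.5-fold, 2-fold and 4-fold were recovered, with 5 false among 143 calls. The changed genes were drawn from all genes, and genes varied independently. These shares therefore need not hold for the members, which spread more widely and share an order of pools. Same-numbered pools deviated together (correlations across genes of 0.426 to 0.635). Such values are not given for pools of unlike number, and the labels do not say that the numbers are pairs. The main fit did not use the numbers, and blocked fits are given where they change a call. Named genes are all members, up to 4 called genes per further list or the one with the smallest p, and Arid3b. Prl3d1 was named after its values were seen. 1 member is kept in the counts and is not reported here by name.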

Additional observations from a re-analysis of the deposited data

Results flagged for a closer look

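In 6 sets of 4 pools, 1 pool lay far from the others. For Serpina6 it was null pool 1 (-5.49, against -7.61 to -7.26 in the other null pools). For Cubn it was wild-type pool 1 (-1.70, against -1.01 to -0.92), and for Soat2 wild-type pool 2 (-4.40, against -4.91 to -4.84). Null pool 4 was the distant one for Rbp4 (2.69, against 3.23 to 3.30), for Apoa1 (-3.30, against -1.77 to -1.51) and for Arid3b (2.48, against 1.83 to 1.89). Such a gap was seen in 5 of the 58 sets of the members (8.62%), and in 5.60% of sets over all genes, where chance gives about 1 in 20.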

How the results depend on the processing

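Against 718 genes and 1 member called, scaling on the median gave 204 (106 higher and 98 lower, against 487 and 231) and 0, no shift between arrays 157 (125 higher and 32 lower) and 0, no filter on dim probes 164 and 0, and normexp 0 and 0 (737 genes and 1 member at an unadjusted p under 0.05). The deposited table gave 309 genes and 1 member, slide as a block 1370 and 2, and the replicate block 2343 and 2, which added Ahsg and changed no other member's call. Either slide alone gave 0 and 0, with 1881 and 2861 genes at an unadjusted p under 0.05. Without 1 pool, 93 to 628 genes and 0 to 3 members were called, and the members' median difference was -0.17 to 0.31. Apoe was higher in the null pools in all 20 alternatives and called in 8. Under normexp the differences of Apoa4 (-0.04), Mttp (-0.03), Soat2 (-0.15), Foxa3 (-0.26) and Ascl2 (-0.03) turned, among values larger than their standard error. The 10th percentile after normexp was 9.88 and 9.12 in the pools numbered 4, wild type and null, against 6.11 to 7.28 elsewhere. This limits all normexp values of dim members given here, the members' median among them.

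Counts of members by pool were set under other scalings after the data were seen. Null pool 3 was the highest for 9 members with median scaling (31.0%, against 5.27% of all genes) and 5 under normexp (17.2%, against 8.2%). The order by null position held for 9 under normexp (31.0%, against 12.7%). The order by wild-type position held for 2 under normexp (6.9%, against 9.93%). In the deposited table it held for 5 (17.2%, against 9.04%), where the main count was 10. Wild-type pool 2 was the highest of its group for 8 under normexp (27.6%, against 24.1%). Null pools 2 and 4 exceeded their wild-type partners under normexp for 4 and 3 (13.8% and 10.3%, against 38.2% and 42.3%). Null pool 2 did so for 4 in the deposited table (13.8%, against 46.4%). The cause was not tested. Median scaling moved the median difference of all genes to -0.10 and that of the members to 0.07. With 0 members called, 4 passed an unadjusted p under 0.05 with median scaling, 5 with no shift, 5 with no filter, and 3 and 5 on slides 1 and 2. Signals near background limit Alb, Serpina6, Apoa4, Hnf4a, Slc2a2 and Ahsg.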

Other observations

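Prl3d1, which encodes a lactogen of trophoblast giant cells, read -2.11 in null pool 4, the pool where most members were low. In the other 7 pools it lay between -4.52 and -3.58. The other trophoblast markers tested, Prl3b1, Ascl2 and Hand1, read -0.95, -3.76 and 0.65 in null pool 4. Their highest pools were wild-type pool 4, null pool 2 and null pool 1, in that order.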
